A study of Mus musculus with 5 samples.

Results

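RNA of 7 acute phase and complement genes was compared between EpH4 cells carrying an sgRNA against Mef2d (sgMef2d) and EpH4 cells carrying a control sgRNA (sgControl). The genes were Lbp, Saa3, Lcn2, Cp, C3, Cfb and Clu, which are 7 of the 12934 genes listed in the deposited counts. They were picked by name as acute phase and complement genes that the table lists, with earlier results of these data known, and Lbp was chosen by its fall between the same groups, so its difference is given as a description with no test. EpH4 is a mouse mammary epithelial line, and both groups expressed Cas9 from a lentivirus and were selected with blasticidin and puromycin. There were 3 sgControl and 2 sgMef2d libraries. The labels number the libraries without saying whether these were separate cultures, or which of the study's sgRNAs against Mef2d each carried. The p-values therefore measure only the spread between these libraries, which may be technical.

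Acute phase proteins are secreted mainly by the liver during infection or injury, and many of them are also made by epithelia, the mammary epithelium among them. Their genes are driven by interleukin-6 through STAT3, by interleukin-1 and tumor necrosis factor through NF-κB, and by C/EBP factors that act together with both. Complement is a cascade of plasma proteins in which C3 is cleaved to mark surfaces for removal, with factor B amplifying that cleavage and clusterin restraining the last, membrane-attacking steps.

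Promoters of 4 of the 7 genes were read from RefSeq on GRCm38.p6, 5 windows in all because Cp has a pair of starts. The windows of Lbp, Cfb and Clu were not used here. Each window ran from 250 bases before the start to 50 bases after it and was searched on both strands for TTGCNNAA (C/EBP), TTCNNNGAA (STAT), and the consensus motifs of NF-κB and MEF2. The C/EBP letters were found in 4 of the 5 windows, with at least a single match for each of the 4 genes, as compared with 10.8% of all 32851 windows of the same length. Upstream stretches are shown for all 4 genes whose windows were read, and the genes were not picked by their levels. Among them, Lcn2 and Cp were lower in the sgMef2d libraries, C3 was lower with a wide spread and Saa3 was not lower. They are written 5′ to 3′ with C/EBP matches in capitals, and begin 250 bases before the start. Annotated UTR bases are left off, so Lcn2 is shown to base -59 and Saa3 to base -25, and Cp is shown for its upstream start. On GRCm38.p6 they lie at chr2:32387798-32387989 (Lcn2, minus strand), chr7:46715701-46715926 (Saa3, minus strand), chr17:57228137-57228386 (C3, minus strand) and chr3:19956804-19957053 (Cp, plus strand).
Lcn2: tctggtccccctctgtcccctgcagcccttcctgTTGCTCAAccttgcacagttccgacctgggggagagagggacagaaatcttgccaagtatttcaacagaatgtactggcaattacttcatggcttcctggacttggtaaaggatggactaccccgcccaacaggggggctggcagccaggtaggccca
Saa3: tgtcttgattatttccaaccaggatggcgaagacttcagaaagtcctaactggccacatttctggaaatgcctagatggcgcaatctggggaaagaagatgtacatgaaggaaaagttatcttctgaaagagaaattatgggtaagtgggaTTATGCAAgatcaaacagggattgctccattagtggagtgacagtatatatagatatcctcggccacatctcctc
C3: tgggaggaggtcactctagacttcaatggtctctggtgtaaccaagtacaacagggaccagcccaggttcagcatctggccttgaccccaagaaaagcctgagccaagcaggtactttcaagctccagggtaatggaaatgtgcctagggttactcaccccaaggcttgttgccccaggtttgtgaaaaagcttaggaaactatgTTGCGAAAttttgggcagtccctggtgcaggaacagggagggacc
Cp: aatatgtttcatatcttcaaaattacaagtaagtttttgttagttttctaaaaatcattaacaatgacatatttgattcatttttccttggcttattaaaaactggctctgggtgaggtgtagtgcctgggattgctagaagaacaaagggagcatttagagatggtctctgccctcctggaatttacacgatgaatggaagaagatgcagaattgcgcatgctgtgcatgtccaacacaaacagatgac

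The capitals of Lcn2 begin 216 bases before the start, those of Saa3 99 bases and those of C3 45 bases before it. The stretch of Cp holds no match. The window of the downstream start of Cp held a C/EBP match beginning 70 bases before that start, and a MEF2 match, CTATTTATAA, beginning 30 bases before it. MEF2 letters occurred in 3.19% of all windows. The MEF2 consensus resembles a TATA box, which usually lies about this far from a start, and 7.83% of the windows with a MEF2 match had one beginning between -40 and -20. No match to the STAT or NF-κB letters was found in any of the 5 windows, as compared with 8.30% and 8.46% of all windows. These matches are descriptions of letters and show no binding.

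The library totals lay between 13601145 and 20498563 counts, and 3 counts, the limit used for detection, corresponded to between 0.146 and 0.221 CPM (counts scaled to a library total of 1000000). Mef2d, the targeted gene, had a mean of 70.9 ± 6.36 CPM (SD, n = 3) in sgControl and 65.0 ± 1.12 CPM (SD, n = 2) in sgMef2d, with overlapping groups, so its RNA level does not check the labels. The counts of sgControl replicate 1 stood apart from those of replicates 2 and 3, with a chi-square per degree of freedom of 10.6 and 13.7, as against 1.99 between replicates 2 and 3 and 2.03 between the sgMef2d libraries, where 1 is counting error alone. Of 12 mammary epithelial markers, 11 were measured, with a summed level of 4304 to 4487 CPM in sgControl and 4098 to 4267 CPM in sgMef2d, and by the test used here 2 were higher and 1 lower. Of 12 macrophage and leukocyte markers, 5 were measured, and their sum of 39.4 to 45.7 CPM in sgControl and 34.6 to 36.1 CPM in sgMef2d was mostly Cd14, which was lower in sgMef2d. The other 4 had higher means in sgMef2d without passing the test or, for Mrc1, without being tested: Csf1r (2.69 and 2.94 CPM), Cd68 (0.756 and 1.08), Lyz2 (0.357 and 0.946) and Mrc1 (0.226 and 0.627). Ptprc and Adgre1 were not analysed here. Of 12 hepatocyte markers, 2 were measured, Ass1 and Apob, summing to 62.6 to 67.8 CPM in sgControl and 89.6 to 90.7 CPM in sgMef2d, with Alb and Ttr not analysed here. Ass1 was higher (64.6 and 89.9 CPM, log2 fold change 0.48), while Apob, at 3 to 21 counts, had means of 0.991 and 0.290 CPM without passing the test. Fibroblast markers, 8 of 10 measured and mostly Fn1, summed to 7338 to 11489 CPM in sgControl and 7377 to 7580 CPM in sgMef2d, and 2 were higher and 2 lower by the test. Adipocyte markers, 3 of 10 measured and mostly Lpl, summed to 32.0 to 35.99 CPM in sgControl and 9.49 to 12.5 CPM in sgMef2d. Lpl and Fabp4 were lower by the test (log2 fold change -1.81 and -1.25, adjusted p = 4.06e-05 and 0.0231 in edgeR), Pparg had means of 1.91 and 1.37 CPM without passing it, and Adipoq and Plin1 were not analysed here. The part of other cell types in the results below was not tested.

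Of the 6 genes other than Lbp, 3 were lower in the sgMef2d libraries past the threshold, an adjusted p below 0.05 in edgeR over all 12483 genes tested (quasi-likelihood test, Benjamini-Hochberg adjustment): Cp, Lcn2 and Clu. Over all genes tested, 7.95% passed that threshold in either direction, 4.28% being lower and 3.67% higher in sgMef2d. C3 was lower in both sgMef2d libraries without passing it, and the group means of Saa3 and Cfb differed by less than the SD of the sgControl libraries. In 4 of the 6, Cp, Lcn2, Clu and C3, both sgMef2d libraries lay below every sgControl library, as compared with 20.5% of all genes tested. All 7 genes passed the filter on low counts. In bulk RNA, fewer cells that express a gene and less RNA per cell cannot be told apart.

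**Figure D1:**
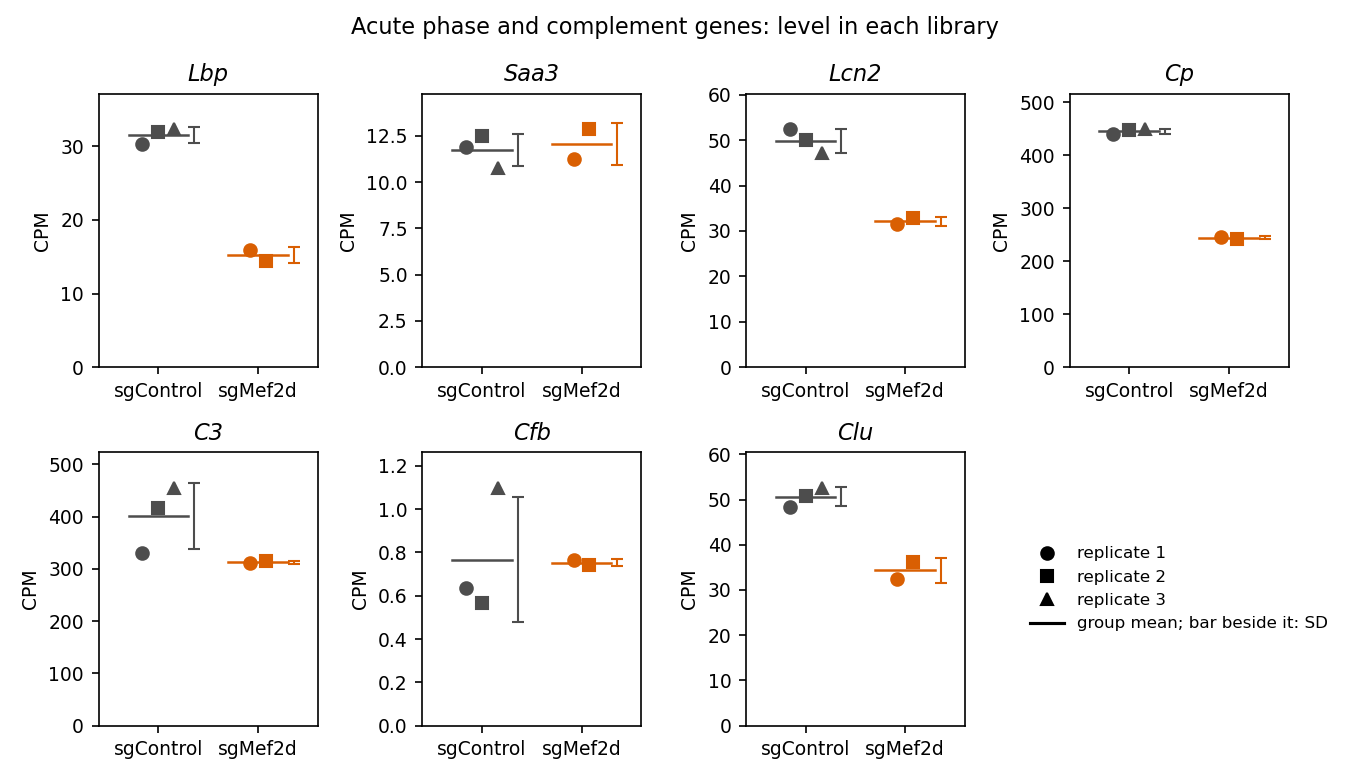
Level of each of the 7 genes in CPM (y axis from 0, a scale of its own in each panel) in the 3 sgControl and 2 sgMef2d libraries, with group means as lines and the SD as a bar beside them. The sgMef2d libraries lie below all sgControl libraries for Lbp, Lcn2, Cp, C3 and Clu, both lie within the sgControl range for Cfb, and for Saa3 1 lies within it and 1 above it.

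The pathogen sensor among these genes is Lbp, which encodes lipopolysaccharide-binding protein, a plasma protein that hands bacterial lipopolysaccharide to CD14 and TLR4. Lbp (ENSMUSG00000016024.9) lies on chromosome 2, plus strand, 158306493 to 158332852 (GRCm38, GENCODE M21, as all gene positions here). It reached 30.3, 31.9 and 32.3 CPM in the sgControl libraries in the order of their numbers, and 15.9 and 14.4 CPM in the sgMef2d libraries. Both sgMef2d libraries stood at about the same low level, 48.2% of the sgControl mean. The log2 fold change of sgMef2d over sgControl, here called the log2 ratio, was -1.05 (standard error 0.091), and it lay between -1.13 and -0.98 over the alternatives. Because Lbp was picked for this fall, no p is given.

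Saa3 encodes an inducible serum amyloid A protein that binds retinol and lipids and is made outside the liver, for example in macrophages and epithelia. Saa3 (ENSMUSG00000040026.8, chromosome 7, minus strand, 46711998 to 46715700) had 11.9, 12.5 and 10.8 CPM in the sgControl libraries and 11.2 and 12.9 CPM in the sgMef2d libraries. The groups overlapped, and the sgMef2d mean was 103% of the sgControl mean. The log2 ratio was 0.03 (standard error 0.12, adjusted p = 0.901 in edgeR), with a 95% interval from -0.23 to 0.30. Its sign changed with the alternative used, between -0.07 and 0.13. Other genes share 3.57% of the 50-base words of its transcripts. Among the related serum amyloid genes, Saa1 had 7 to 14 counts in sgControl and 16 in each sgMef2d library, a log2 ratio of 0.74. Saa1 is named here after its values were seen. Its sgControl libraries alone would not have carried it past the filter on low counts, so its p is not given.

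Iron and copper handling is represented by Lcn2 and Cp. Lipocalin 2, the product of Lcn2, captures bacterial siderophores and so withholds iron. Lcn2 (ENSMUSG00000026822.14, chromosome 2, minus strand, 32384633 to 32388252) had 52.4, 50.1 and 47.2 CPM in the sgControl libraries and 31.4 and 32.8 CPM in the sgMef2d libraries. All sgControl libraries were above both sgMef2d libraries, whose mean was 64.4% of the sgControl mean. The log2 ratio was -0.64 (standard error 0.077, 95% interval -0.81 to -0.47, adjusted p = 5.90e-04 in edgeR), and Lcn2 kept its call in 12 of 12 alternatives.

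Ceruloplasmin, the product of Cp, is a copper-carrying ferroxidase that oxidizes iron as it leaves cells. Cp (ENSMUSG00000003617.16, chromosome 3, plus strand, 19957054 to 20009145) had 440, 447 and 449 CPM in the sgControl libraries and 247 and 242 CPM in the sgMef2d libraries. Within each group the libraries were nearly equal, and the sgMef2d mean was 54.8% of the sgControl mean. The log2 ratio was -0.87 (standard error 0.055, 95% interval -0.99 to -0.74, adjusted p = 4.55e-06 in edgeR), and Cp kept its call in 12 of 12 alternatives. Exons of Cp overlap exons of Hps3 on the opposite strand. The libraries mark strand, but whether the counting used it is not given in the sources used here. Hps3 had 32.7 ± 1.77 CPM (SD, n = 3) in sgControl and 28.5 ± 1.06 CPM (SD, n = 2) in sgMef2d, or 87.0% of the sgControl mean.

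C3 encodes the central component of the complement cascade. C3 (ENSMUSG00000024164.15, chromosome 17, minus strand, 57203970 to 57228136) had 331, 416 and 455 CPM in the sgControl libraries in the order of their numbers, and 311 and 315 CPM in the sgMef2d libraries. The sgControl libraries were spread widely, with replicate 1 only slightly above the sgMef2d libraries, while the sgMef2d libraries were close to each other. The sgMef2d mean was 78.1% of the sgControl mean. The log2 ratio was -0.36 (standard error 0.11, 95% interval -0.59 to -0.12, adjusted p = 0.0666 in edgeR), which did not pass the threshold. Without sgControl replicate 1, the library that stood apart, it was -0.48 (adjusted p = 3.57e-20). In that fit 4 of the 6 genes other than Lbp were lower past the threshold, while 14.8% of all genes tested were lower past it. The log2 ratios of Cp, Lcn2 and Clu in that fit were -0.88, -0.60 and -0.59. C3 also passed with DESeq2 (adjusted p = 0.0187) and with a replicate block (adjusted p = 0.0382), and over all alternatives its adjusted p lay between 3.57e-20 and 0.337.

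Complement factor B, the serine protease that joins cleaved C3 in the alternative pathway, is encoded by Cfb. Cfb (ENSMUSG00000090231.10, chromosome 17, minus strand, 34856374 to 34862518) had 13, 8 and 15 counts in the sgControl libraries and 13 and 11 counts in the sgMef2d libraries. These correspond to 0.634, 0.567 and 1.10 CPM and to 0.765 and 0.741 CPM, above the limit of 3 counts in every library. The groups overlapped, and the log2 ratio was 0.013 (standard error 0.43, adjusted p = 0.990 in edgeR). Its 95% interval, from -0.93 to 0.96, is wide enough that a change as large as that of Cp was not detectable at these counts. Other genes share 73.0% of the 50-base words of Cfb transcripts, most often Gm20547, which overlaps it on the same strand, so the counting could have left out or split its reads.

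The remaining gene, Clu, encodes clusterin, a secreted chaperone that keeps the membrane attack complex from inserting into cell membranes. Clu (ENSMUSG00000022037.15, chromosome 14, plus strand, 65968483 to 65981547) had 48.4, 50.8 and 52.6 CPM in the sgControl libraries and 32.4 and 36.3 CPM in the sgMef2d libraries. The groups did not overlap, and the sgMef2d mean was 67.8% of the sgControl mean. The log2 ratio was -0.56 (standard error 0.080, 95% interval -0.73 to -0.38, adjusted p = 0.00146 in edgeR). Clu kept its call in 11 of 12 alternatives and missed it without sgMef2d replicate 1 (log2 ratio -0.48, adjusted p = 0.0534).

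**Figure D2:**
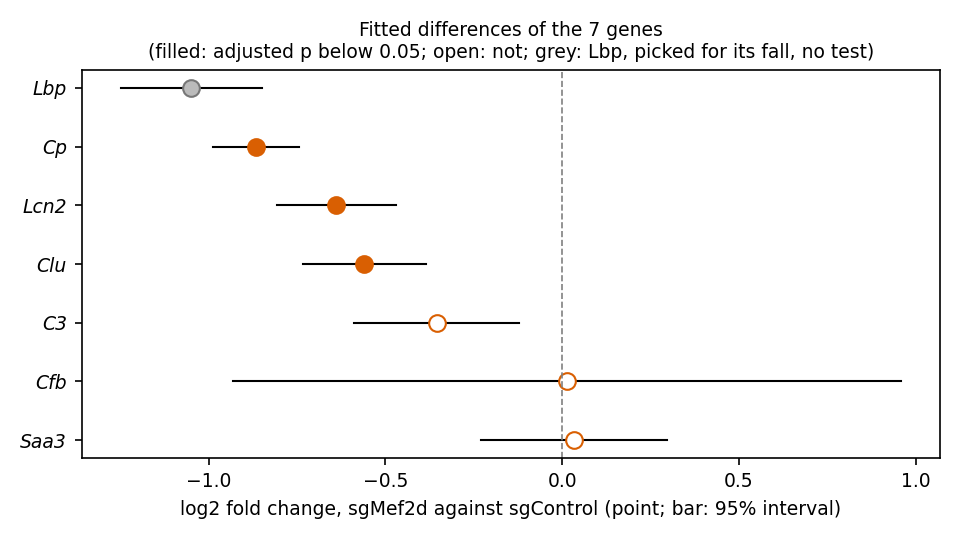
Log2 fold change of each of the 7 genes between sgMef2d and sgControl (x axis) with its 95% interval, filled where the adjusted p was below 0.05 and grey for Lbp, for which no test is read. Cp, Lcn2 and Clu lie between -0.87 and -0.56 with intervals below 0, C3 at -0.36 did not pass the threshold, and the interval of Cfb is the widest.

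**Figure D3:**
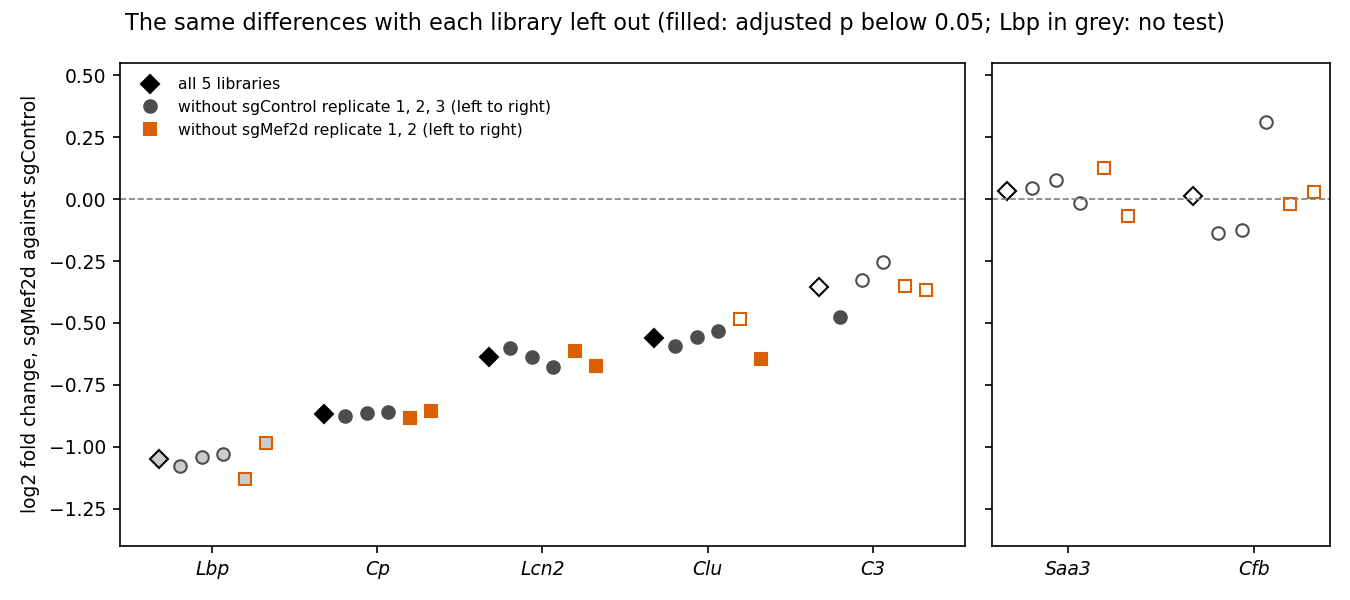
Log2 fold change of the 7 genes (y axis) with all 5 libraries and with each library left out in turn, filled where the adjusted p was below 0.05 and grey for Lbp. C3 is filled only without sgControl replicate 1, Clu is open only without sgMef2d replicate 1, and Saa3 and Cfb fall on both sides of 0.

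Levels of different genes were compared per kilobase of merged exons, which understates genes with many alternative exons. The level of Cfb may also be understated, since reads it shares with Gm20547 could have been left out or split. In sgControl, C3 was the highest with 77.9 ± 12.4 CPM per kilobase (SD, n = 3), followed by Cp with 46.6 ± 0.509, Lcn2 with 19.0 ± 0.996, Clu with 14.7 ± 0.613, Lbp with 6.52 ± 0.218, Saa3 with 4.50 ± 0.333 and Cfb with 0.271 ± 0.103 CPM per kilobase. No library's value of a gene overlapped that of its neighbour in this order. In sgMef2d, C3 had 60.9 ± 0.548 CPM per kilobase (SD, n = 2), Cp 25.6 ± 0.327, Lcn2 12.2 ± 0.369, Clu 9.99 ± 0.808, Saa3 4.62 ± 0.440, Lbp 3.14 ± 0.225 and Cfb 0.267 ± 0.00609. Lbp and Saa3 thus changed places, with the rest of the order kept.

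The genes around these 7 were described from 5 lists, which overlap with each other and with the 7 genes. Of 55 complement genes, 22 were measured and tested, with a median log2 ratio of -0.23, as compared with 0.0031 over all genes tested. Without sgControl replicate 1, 3639 of 12377 genes passed the threshold. Among them were 10 of 22 complement genes, 11 of 18 acute phase genes and 6 of 22 lipopolysaccharide recognition genes. The cytokine list had 18 of 37 and the iron handling list 16 of 27. Lbp, picked for its fall, is counted in the acute phase and lipopolysaccharide recognition numbers. In the fit of all libraries, 4 of the 19 tested complement genes other than Cfb, C3 and Clu passed the threshold, 2 lower and 2 higher. This compares with 7.95% of all genes tested, and the median of the 19 was -0.22. C1s1, which encodes the C1s protease of the classical pathway, fell from 44.6 ± 1.503 (SD, n = 3) to 25.9 ± 0.201 CPM (SD, n = 2), or a log2 ratio of -0.78 (adjusted p = 1.24e-04 in edgeR), and kept its call in 12 of 12 alternatives. Susd4, a complement inhibitor, fell with a log2 ratio of -0.75, and missed the threshold without either sgMef2d library (adjusted p = 0.0934 without replicate 1 and 0.0949 without replicate 2).

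Cd93, a membrane protein first described as a C1q receptor, rose with a log2 ratio of 0.74 and missed the threshold without sgMef2d replicate 1 or 2 (adjusted p = 0.119 and 0.191). The membrane regulators Cr1l and Cd55 had log2 ratios of -0.15 and 0.26 and did not pass the threshold (adjusted p = 0.198 and 0.540). Cr1l did pass when sgControl replicate 1 was left out (adjusted p = 0.0352). Cfi, C3ar1 and Serping1 were not analysed here.

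Of 54 acute phase genes, 19 were measured and 18 tested, with a median log2 ratio of -0.05. Among the 14 tested genes other than those of the 7, the median was 0.09, and 1, Cd14, passed the threshold, a share close to the 7.95% of all genes tested. Of these 14, 8 had a log2 ratio above 0 and 6 below it. Hp, which encodes haptoglobin, had 55.4 ± 3.35 CPM (SD, n = 3) in sgControl and 65.7 ± 0.0984 CPM (SD, n = 2) in sgMef2d, a log2 ratio of 0.24 (adjusted p = 0.0591 in edgeR). On the other side, F3 and Steap4 had log2 ratios of -0.27 and -0.60 without passing the threshold. Hp, F3 and Steap4 are named here after their values were seen.

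Lipopolysaccharide recognition was represented by 29 genes, 22 of them measured and tested, with a median log2 ratio of -0.02. Of the 21 other than Lbp, with a median of -0.018, 3 were lower past the threshold, beside 4.28% of all genes tested. The 1 higher gene past it, Acod1, passed the filter on low counts only through the sgMef2d libraries and is not set against that share. The lower genes encode receptors that act with Lbp or beside it: Tlr2 (34.5 ± 3.18 CPM, SD, n = 3, in sgControl and 23.5 ± 0.996 CPM, SD, n = 2, in sgMef2d), Tlr4 (24.8 ± 0.999 and 19.0 ± 0.192 CPM) and Cd14 (37.8 ± 3.89 and 29.8 ± 1.25 CPM). Their log2 ratios were -0.55, -0.39 and -0.35 (adjusted p = 0.00554, 0.0208 and 0.0472 in edgeR). With a single sgMef2d library these calls were not kept, with adjusted p values from 0.0574 to 0.0942 for Tlr2, 0.172 to 0.213 for Tlr4 and 0.208 to 0.372 for Cd14. Cd14 also missed the threshold without sgControl replicate 2 (0.0516), with DESeq2 (0.0606) and with limma-voom (0.0548).

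Ly96, which encodes the TLR4 co-receptor MD-2, had a log2 ratio of 0.17 (adjusted p = 0.834 in edgeR), and its sign changed when single libraries were left out. The gene past the threshold with a higher level was Acod1, which encodes the itaconate-making enzyme induced by lipopolysaccharide in macrophages. Acod1 had 5 counts over the 3 sgControl libraries and 28 counts over the 2 sgMef2d libraries, a ratio of 8.44 per total count with a 95% exact interval of 3.22 to 28.0 for counting error only. It passed the filter on low counts only through the sgMef2d libraries, where it was high, so its p is not given and its call is no support for a rise.

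The list of cytokine inputs and their transducers held 54 genes, of which 39 were measured and 37 tested, with a median log2 ratio of 0.018. Of these 37, 8 passed the threshold, 5 higher and 3 lower, again beside 7.95% of all genes tested. Socs3, a feedback inhibitor that STAT3 induces, rose from 29.0 ± 3.81 (SD, n = 3) to 48.0 ± 2.01 CPM (SD, n = 2), or a log2 ratio of 0.72 (adjusted p = 0.00126 in edgeR), and kept its call in 12 of 12 alternatives. Il1r1, which encodes the interleukin-1 receptor, rose from 20.5 ± 1.16 to 31.3 ± 1.86 CPM, a log2 ratio of 0.61 (adjusted p = 0.00157), and missed the threshold without sgMef2d replicate 2 (0.0528). Stat3 itself rose with a log2 ratio of 0.28 (adjusted p = 0.0143), and Nfkbiz, an NF-κB cofactor needed for Lcn2 induction, with 0.38 (adjusted p = 0.00750). Nfkbiz missed the threshold without sgMef2d replicate 1 (adjusted p = 0.184), and Stat3 without sgControl replicate 2 (0.0546) or sgMef2d replicate 1 (0.102) or 2 (0.281). Tnf rose from 0.999 ± 0.233 to 2.64 ± 0.682 CPM and missed the threshold without sgControl replicate 2 (adjusted p = 0.0550) or sgMef2d replicate 1 (0.285) or 2 (0.0546).

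The 3 genes that fell were Tnfrsf1b, Jak2 and Ifngr2, which encode a tumor necrosis factor receptor, a receptor-bound kinase and a chain of the interferon-γ receptor. Their log2 ratios were -0.55, -0.36 and -0.33 (adjusted p = 0.00450, 0.0296 and 0.0231 in edgeR), and with a single sgMef2d library their adjusted p values lay between 0.0594 and 0.324. Without sgControl replicate 3, those of Jak2 and Ifngr2 were 0.0620 and 0.0505, and without sgControl replicate 2 that of Jak2 was 0.111. The C/EBP genes Cebpb and Cebpd had log2 ratios of -0.04 and 0.33 and did not pass the threshold (adjusted p = 0.862 and 0.255). Without sgControl replicate 1, Cebpd passed it (adjusted p = 0.0112) and the sign of Cebpb turned (0.09, adjusted p = 0.106). Il6st, the shared receptor chain of the interleukin-6 family, had 290 ± 33.0 (SD, n = 3) and 237 ± 2.05 CPM (SD, n = 2), or a log2 ratio of -0.29 (adjusted p = 0.0609). Il6st did pass with DESeq2 (0.0329), and also when sgControl replicate 1 was left out (1.22e-14).

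Iron handling was represented by 41 genes, 27 of them measured and tested, with a median log2 ratio of -0.019. Without Lcn2 and Cp the median of the other 25 was 0.073. Of these 25, 1 passed the threshold, a share under the 7.95% of all genes tested. This was Steap1, of a family of membrane metalloreductases, which rose from 40.5 ± 1.39 (SD, n = 3) to 55.7 ± 4.07 CPM (SD, n = 2), or a log2 ratio of 0.46 (adjusted p = 0.00341 in edgeR), but not without sgMef2d replicate 1 (0.102). Tfrc, the transferrin receptor, had 743 ± 37.5 and 797 ± 8.22 CPM (adjusted p = 0.361), and Slc40a1, the iron exporter ferroportin that works with ceruloplasmin, had 5.30 ± 1.06 and 3.37 ± 0.390 CPM (adjusted p = 0.119). Without sgControl replicate 1 both passed the threshold, Tfrc with a log2 ratio of 0.14 (adjusted p = 5.91e-04) and Slc40a1 with -0.80 (adjusted p = 0.00208). Slc22a17, a receptor for lipocalin 2, and Heph were not analysed here.

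**Figure D4:**
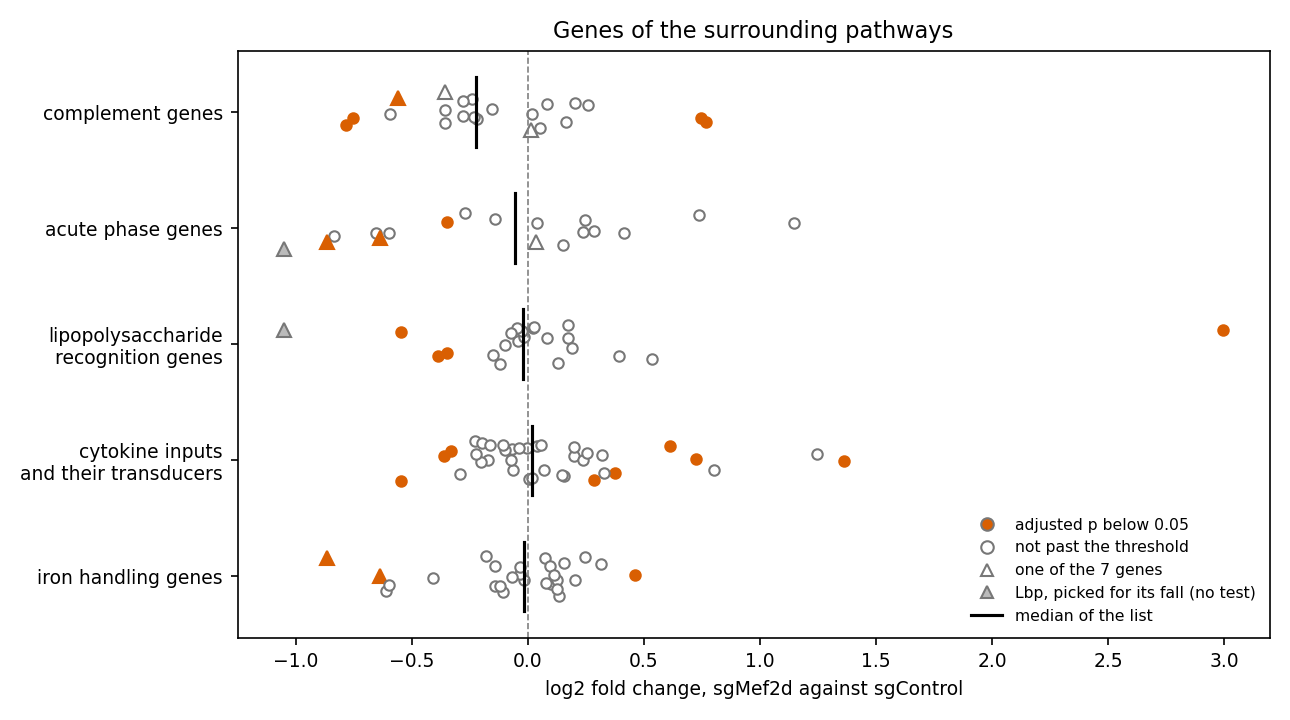
Log2 fold change between sgMef2d and sgControl (x axis) of every tested gene of the 5 lists (rows), filled where the adjusted p was below 0.05, with triangles for the 7 genes, grey for Lbp and a line at the median of each list. The filled genes lie on both sides of 0 in each list except the acute phase genes, where they lie below 0, and the list medians lie between -0.23 and 0.018. Among the lipopolysaccharide recognition genes, the only filled gene above 0 is Acod1, which passed the filter on low counts only through the sgMef2d libraries.

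The genes whose pattern was most like that of Lbp over the 5 libraries, by Pearson's correlation of log2 CPM, were Mllt10 (r = 0.9999, log2 ratio -0.19), Cxcl12 (r = 0.999, -0.70) and Os9 (r = 0.998, -0.10). Those most like Clu were Fgd3 (r = 0.998, -0.42), Sh3bp4 (r = 0.998, -0.36) and Foxo1 (r = 0.996, -0.34). The points share the same libraries and the same contrast, and r was over 0.95 for 555 genes with Lbp and 388 genes with Clu, so a high value does not single these genes out.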

How the data were processed

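Poly(A)-selected, strand-marked RNA libraries of EpH4 cells were sequenced by the authors, aligned with STAR2 to GRCm38 and deposited as raw counts per gene. The submitters' processing notes also name CASAVA and Subread, and counting settings are not given in the sources used here. Genes with low counts had been removed, since every gene listed reached 11 counts in a library. All 12934 identifiers matched GENCODE M21, which gave symbols, positions and exon lengths.

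With edgeR 4.0.16 (R 4.3.3), these counts were scaled by TMM (factors 0.996 to 1.00) and tested by the bias-adjusted quasi-likelihood method, with Benjamini-Hochberg adjustment over the 12483 genes that passed filterByExpr. CPM are counts scaled to TMM-adjusted library totals over these genes of 1000000, and log2 CPM used a prior count of 2. The standard error was the log2 fold change divided by the root of F. Alternatives were DESeq2 1.42.0, limma-voom 3.58.1, other normalizations, the legacy test, no filter, a replicate block and each library left out. The script was tested on simulated data. A list gene past the threshold is not reported here by name. The members, lists and rules were chosen with earlier results of these data known. Genes named were the 7, list genes past the threshold, a few fixed pathway partners, and the 3 genes most like Lbp and like Clu, the called member with the highest log2 fold change.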

Additional observations from a re-analysis of the deposited data

How the results depend on the processing

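Over 12 alternatives each, the 6 genes other than Lbp gave 72 values of the log2 fold change, of which 61 kept their sign and their side of the threshold. C3 passed the threshold in 3 alternatives, Clu missed it in 1, and the sign turned in 7, for Saa3 with a replicate block (-0.022) and for Cfb with DESeq2 (-0.013), and for both when single libraries were left out (-0.066 to 0.127 for Saa3 and -0.14 to 0.31 for Cfb). Cp and Lcn2 kept sign and side in each. With libraries left out, the number of these 6 genes past the threshold lay between 2 and 4, that of all genes between 234 (without sgMef2d replicate 2) and 3639 (without sgControl replicate 1), of complement genes between 1 and 10, of acute phase genes between 3 and 11, of lipopolysaccharide recognition genes between 1 and 6, of cytokine inputs and their transducers between 2 and 18, and of iron handling genes between 2 and 16. Lbp, picked for its fall, is counted in these acute phase and lipopolysaccharide recognition numbers and alone makes up the lowest of the latter. These numbers are therefore no support for a fall of those lists. Acod1, which passed the filter on low counts only through the sgMef2d libraries, is among the list genes counted here. Leaving out an sgMef2d library leaves 1, which is assumed to vary like the sgControl libraries. Of the 17 list genes past the threshold other than the 7, 2 kept it without each library in turn, C1s1 and Socs3. With the replicate number as a block, 5 iron handling genes passed the threshold as against 3, and 1254 genes in all as against 992. Only numbers 1 and 2 are shared between the groups. The deviations of same-numbered libraries from their group means had correlations of 0.011 and -9.16e-04 over genes. With 2 sgMef2d libraries, their deviations are opposite by construction, so these values cannot decide whether the numbers pair the libraries. Cfb, at 8 to 15 counts, is limited by its low counts, and reads it shares with Gm20547 could have been left out or split. The cause of these changes was not tested.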
